A study of Caenorhabditis elegans with 18 samples.

Results

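The tubulin genes described here are 10 members of the family in Caenorhabditis elegans: the beta-tubulin genes tbb-6, tbb-1, tbb-2, tbb-4 and mec-7, the alpha-tubulin genes mec-12, tba-1, tba-2 and tba-4, and the gamma-tubulin gene tbg-1. They are 10 of the 17118 genes that have a probe set of their own on the array, and for each the probe set annotated with that gene alone was used (the brightest on average over the 18 arrays, where there are several). The group was chosen by family membership and because tbb-6 was already known to be high in the mutant in these data, so every value of tbb-6 is given as a description, with no test. The other 9 members were tested, although their values were also known when the group was proposed. RNA of whole worms was measured in lin-35(n745) mutants and in the laboratory wild type N2, each as embryos, as L1 hermaphrodites (the first larval stage) and as L4 hermaphrodites (the last larval stage), grown on agar plates with Escherichia coli OP50. lin-35 encodes the worm's retinoblastoma-like pocket protein, a transcriptional repressor, and n745 is a loss-of-function allele that the labels call null at L1. There were 3 arrays from independently grown animals in each of the 6 groups. The labels describe the embryos only as a population, with no age, and the larvae as synchronized.

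Alpha- and beta-tubulin form the heterodimers from which microtubules are built, and gamma-tubulin nucleates microtubules at centrosomes and other sites. C. elegans has several genes for alpha- and for beta-tubulin. tba-1, tba-2, tbb-1 and tbb-2 encode broadly used tubulins that also build the spindles of the early embryo, mec-7 and mec-12 encode the tubulins of the thick microtubules of touch receptor neurons, and tbb-4 is known for its use in ciliated sensory neurons. tbb-6 is a divergent beta-tubulin gene that is little expressed in unstressed wild-type worms and is known as a reporter of a mitochondrial stress response that runs through the p38-type kinase PMK-3.

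Values are log2 levels as the authors deposited them, and differences are lin-35(n745) minus N2 unless stated. They are given ± the standard error of a limma fit over all 18 arrays, and a gene was called where limma's adjusted p was under 0.05. Arrays of a group correlated at 0.9863 to 0.9973 across probe sets, and 0 pairs of arrays held identical values. As a check of the labels, lin-35 itself read lower in all mutant arrays than in all wild-type arrays at each stage, with differences of −1.38 in embryos, −1.27 at L1 and −1.25 at L4 (each ± 0.15 SE, adjusted p at most 4.3e-06). In embryos, replicate 1 of each strain had a BioDn hybridization control value of 10.55 in lin-35(n745) and 10.23 in N2, while the other 4 embryo arrays were above 12. Without these arrays the embryo difference of tbb-6, described below, was 4.46 in place of 4.44. In material from whole worms, fewer cells of a type and less RNA per cell cannot be told apart. Germline genes moved with the strain: of 5, 3 were higher in lin-35(n745) in embryos and 3 at L1, and 4 were higher and 1 lower at L4. Their mean level lay between 7.97 and 8.21 in lin-35(n745) embryos against 7.23 to 7.40 in N2 embryos, between 9.11 and 9.38 at L1 in lin-35(n745) against 6.93 to 7.11 in N2, and between 9.88 and 10.01 at L4 in lin-35(n745) against 9.25 to 9.33 in N2. None of the 7 sperm genes was called in embryos, 2 were lower at L1 and 1 was lower at L4. Muscle genes were called higher in 0, 1 and 1 of 5 at the successive stages, and intestinal genes in 0, 1 and 2 of 5, with 0, 1 and 1 lower. Of all probe sets, 5.92%, 8.24% and 7.77% were called higher and 3.78%, 6.94% and 7.48% lower at these stages. In lists this short, counts of 0 or 1 are near such shares. The part of other tissues in the tubulin values was not tested.

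The tbb-6 probe set was high in every lin-35(n745) array and low in every N2 array. In embryos it read 10.11, 10.34 and 9.65 in lin-35(n745), against 5.71, 5.45 and 5.62 in N2. At L1 it read 7.42, 8.09 and 9.64 in lin-35(n745), against 5.90, 6.03 and 5.70 in N2. At L4 it read 9.67, 9.30 and 9.21 in lin-35(n745), against 6.16, 6.08 and 6.06 in N2. The strains did not overlap at any stage, and the lowest mutant array, at L1, was above the highest wild-type array, at L4.

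The mean difference of tbb-6 between the strains was 4.44 ± 0.33 in embryos, which is 21.6-fold. It was 2.50 ± 0.33 at L1, or 5.67-fold, and 3.29 ± 0.33 at L4, or 9.80-fold. The standard error is the same at each stage because the fit shares 1 spread over the 6 groups. At L1, where the mutant arrays lay far apart, it may be too small. All N2 readings of tbb-6 lay below the median of every array, and the values carry no detection call, so these folds may be lower bounds. Ranked by this difference among all 17118 genes, tbb-6 stood at place 1 in embryos, 78 at L1 and 17 at L4. These ranks describe the measure for which the gene was chosen.

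The 3 lin-35(n745) L1 arrays were far apart for tbb-6, with an SD of 1.14 against 0.16 in N2 L1 larvae. The arrays of the other mutant groups had an SD of 0.35 in embryos and 0.24 at L4. One lin-35(n745) L1 array, replicate 3, was within 0.01 of the lowest mutant embryo array. Leaving out that replicate put the L1 difference at 1.88, and leaving out replicate 1 put it at 2.99. The strain difference at L1 minus that in embryos was −1.93, and it ran from −2.56 to −1.45 as single arrays were left out. In the order of the group means, the lin-35(n745) embryos came highest, then lin-35(n745) at L4 and at L1, each overlapping its neighbour. The N2 groups followed in the order L4, L1 and embryo, and the N2 L1 and N2 embryo arrays overlapped.

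**Figure D1:**
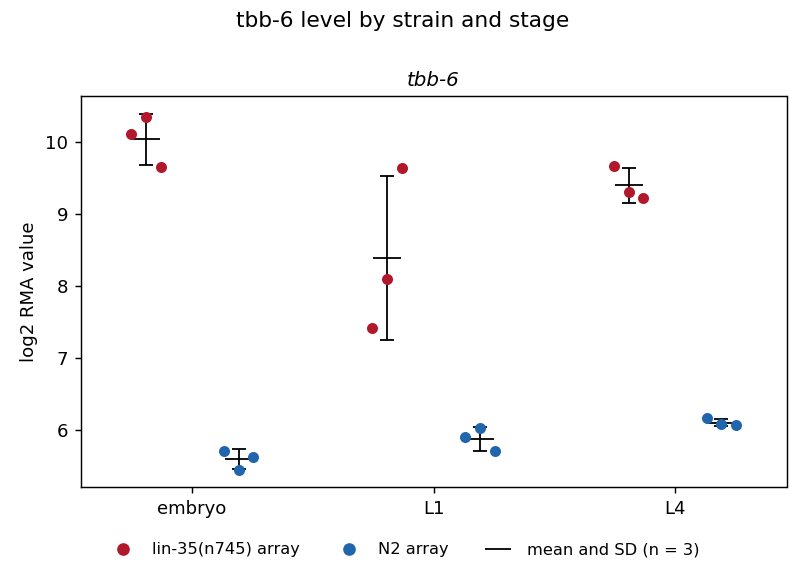
Log2 RMA level of tbb-6 (vertical axis) in each array by stage (horizontal axis), with the mean and SD of each group of 3 arrays. Every lin-35(n745) array lies above every N2 array, and the lin-35(n745) L1 arrays spread over 7.42 to 9.64.

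Among all other genes, those whose profile over the 18 arrays was most like that of tbb-6 were fbxc-58 (Pearson r = 0.96), C09G5.7 (0.95), srh-16 (0.93), F37D6.3 (0.93) and fipr-17 (0.91). The 18 arrays share 3 stages and 2 strains, so these are descriptions of the same contrast. All 5 were higher in lin-35(n745) at each stage. F37D6.3 differed between the strains by 3.74 in embryos, 4.02 at L1 and 4.09 at L4. For C09G5.7 the differences were 3.79 in embryos, 2.03 at L1 and 2.0 at L4. When single arrays were left out, between 3 and 5 of the 5 genes stayed on the list.

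None of the 5 measured genes nearest to tbb-6 on chromosome V was called higher in lin-35(n745). Of all probe sets, 5.92%, 8.24% and 7.77% were called higher and 3.78%, 6.94% and 7.48% lower at the successive stages. With 5 genes, counts of 0 or 1 are near these shares. They were looked up after the tbb-6 values were known, in the gene order of RefSeq assembly WBcel235. The nearest on one side, the UDP-glucuronosyltransferase gene ugt-56, differed by 0.07 in embryos, 0.15 at L1 and 0.04 at L4, and none of the 3 values passed the test (adjusted p 0.84, 0.50 and 0.91, limma). On the other side ssp-35 differed by −0.07 in embryos, −0.49 at L1 and −0.13 at L4, of which the L1 value passed (adjusted p = 0.0027). Further out, ugt-55 and twk-24, a potassium channel gene, passed at no stage, and tsfm-1 was lower at L4 by −0.35 (adjusted p = 0.025).

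None of the other 9 members described here came near the size of the tbb-6 difference (tba-7, a tubulin gene outside these members, is given below). Across the 9 tested members the strain differences ran from −0.37 to 0.17 in embryos, from −0.32 to 0.38 at L1 and from −0.24 to 0.21 at L4, with medians of −0.004, 0.007 and −0.03. The medians over all probe sets were −0.03, −0.04 and −0.03 at the same stages. In embryos 0 of the 9 were called higher and 0 lower, against 5.92% and 3.78% of all probe sets. At L1 1 of the 9 was called higher and 0 lower, against 8.24% and 6.94%. At L4 0 were called in either direction, against 7.77% higher and 7.48% lower. At an unadjusted p under 0.05 in limma the counts were 1 in embryos (tba-4), 1 at L1 (tba-2) and 2 at L4 (tbb-4 and tba-2). With 9 members, counts of 0 and 1 are near these backgrounds. The strain difference did not pass a test of change between stages for any of the 9, against 9.20% of probe sets between L1 and embryo, 6.72% between L4 and L1 and 7.74% between L4 and embryo. Unadjusted, 1 of the 9 (tba-4, between L1 and embryo) had a p under 0.05 in limma.

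**Figure D2:**
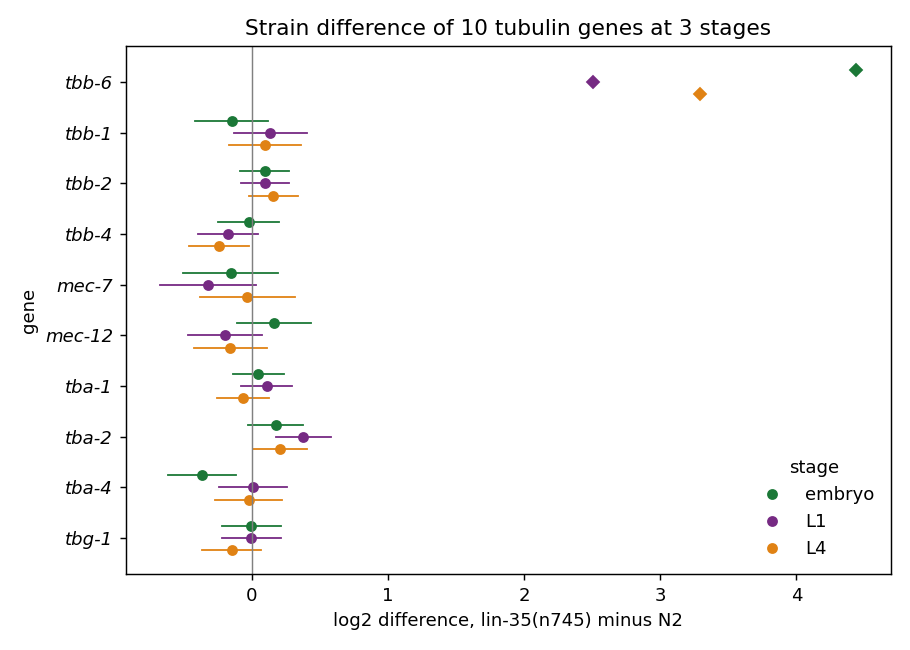
Log2 difference, lin-35(n745) minus N2 (horizontal axis), for the 10 tubulin genes (vertical axis) in embryos, at L1 and at L4. Points are differences of means of 3 arrays a strain, and bars are unadjusted 95% confidence intervals of the limma fit, drawn for the 9 tested genes. The tbb-6 diamonds, at 4.44, 2.50 and 3.29, stand apart from the other genes, which lie between −0.37 and 0.38.

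tba-2 was the member called at L1. Its L1 arrays read 12.99, 12.81 and 12.82 in lin-35(n745), against 12.37, 12.53 and 12.58 in N2. All mutant arrays were above all wild-type arrays, and the difference was 0.38 ± 0.10, or 1.299-fold (adjusted p = 0.0099, limma). In embryos tba-2 read 12.88, 12.88 and 12.73 in lin-35(n745), against 12.70, 12.54 and 12.72 in N2, a difference of 0.17 ± 0.10 (adjusted p = 0.31). At L4 the difference was 0.21 ± 0.10 (adjusted p = 0.18). The strains did not overlap at these stages either, but neither difference passed the test. With 3 arrays against 3, a full separation has an exact two-sided rank p of 0.1 at the smallest. Separation here and for the genes below is therefore a description only, and its share over all probe sets was not counted.

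The L1 call of tba-2 rested on the setting. Without N2 L1 replicate 1 the adjusted p was 0.058, with the 6 L1 arrays fitted alone it was 0.085, and with the mean of the gene's probe sets it was 0.069. The array holds 2 further probe sets for tba-2, whose L1 differences were 0.14 and 0.23, neither called (adjusted p 0.36 and 0.16). Tubulin coding sequences are closely alike, and 11 of the 13 probe sets of these genes carry an array suffix that marks probes shared with other sequences. Their readings may therefore hold signal of more than 1 tubulin gene. The tbb-6 and tba-4 probe sets carry no such suffix.

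tba-4 was the member with the lowest difference in embryos. It read 7.06, 6.82 and 6.95 in lin-35(n745) embryos, against 7.16, 7.44 and 7.33 in N2 embryos. The strains did not overlap, and the difference was −0.37 ± 0.12 with an adjusted p of 0.058, just outside the threshold. It was inside the threshold with each array centred on its median (adjusted p = 0.044), with an intensity trend in the fit (0.0499) and without replicate 1 of both strains (0.048, difference −0.50). Among single arrays left out, 3 brought it inside: N2 embryo replicate 1 (0.042) and lin-35(n745) L1 replicates 2 and 3 (0.037 and 0.016). At L1 and L4 the tba-4 differences were 0.01 ± 0.12 and −0.02 ± 0.12.

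The other broadly used tubulins differed little between the strains. For tbb-1 the difference was −0.15 ± 0.13 in embryos, 0.13 ± 0.13 at L1 and 0.10 ± 0.13 at L4, and the strains overlapped at each stage. tbb-2 was 0.09 ± 0.09 in embryos, 0.09 ± 0.09 at L1 and 0.16 ± 0.09 at L4 (adjusted p 0.59, 0.52 and 0.28), and its mutant and wild-type arrays did not overlap at L1 and L4. The 95% intervals of tbb-2 reached from −0.08 to 0.27 at L1 and from −0.02 to 0.33 at L4. tba-1 was 0.05 ± 0.09, 0.11 ± 0.09 and −0.07 ± 0.09 at the successive stages. The gamma-tubulin gene tbg-1 was −0.004 ± 0.10 in embryos and at L1 and −0.15 ± 0.10 at L4 (adjusted p = 0.42), where its arrays did not overlap.

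The neuronal tubulin genes were also not called between the strains. mec-7 differed by −0.16 ± 0.17 in embryos, −0.32 ± 0.17 at L1 and −0.03 ± 0.17 at L4 (adjusted p 0.67, 0.22 and 0.94). In L1 larvae it read 10.26, 9.65 and 9.28 in lin-35(n745), against 10.002, 10.17 and 9.99 in N2, so the highest and the lowest L1 arrays were both mutant. Without lin-35(n745) L1 replicate 1 the L1 difference was −0.59 with an adjusted p of 0.0044, and without replicate 3 it was −0.10 (adjusted p = 0.74). The gene's other probe set had −0.02 at L1 and the mean of both had −0.17, neither called. That replicate held the highest mec-7 and the lowest tbb-6 of the 3 mutant L1 arrays, and replicate 3 the lowest mec-7 and the highest tbb-6.

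mec-12, the alpha-tubulin of the same touch neurons, differed by 0.16 ± 0.13 in embryos, −0.20 ± 0.13 at L1 and −0.16 ± 0.13 at L4. tbb-4 differed by −0.02 ± 0.11 in embryos and −0.18 ± 0.11 at L1. At L4 tbb-4 read 6.36, 6.33 and 6.29 in lin-35(n745), against 6.56, 6.68 and 6.47 in N2. These arrays did not overlap, and the difference of −0.24 ± 0.11 missed the threshold (adjusted p = 0.15). Genes that mark touch receptor neurons were called at no stage, 0 of 10 in either direction, and at an unadjusted p under 0.05 (limma) the counts were 1, 1 and 2 at the successive stages. Of 7 pan-neuronal genes 0 were called in embryos and at L1 (2 and 0 unadjusted), and snb-1, which encodes synaptobrevin, was higher at L4 by 0.33 (adjusted p = 0.032). Of all probe sets, 5.92%, 8.24% and 7.77% were called higher and 3.78%, 6.94% and 7.48% lower at the successive stages. The counts of both lists are near these shares.

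Differences of the 9 tested genes between neighbouring stages reached 2.61 (tba-4), while their strain differences reached 0.38 (tba-2). From embryo to L1, 2 of the 9 were called higher and 3 lower in lin-35(n745), against 37.4% and 32.9% of all probe sets, and 2 were higher and 3 lower in N2, against 40.8% and 33.6%. From L1 to L4, 2 were higher and 5 lower in lin-35(n745), against 19.5% and 23.7%, and 2 were higher and 5 lower in N2, against 21.2% and 24.0%. The median over all probe sets for L1 minus embryo was 0.13 in N2, and it was 0.25 when each array was centred on its median.

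tba-4 was the alpha-tubulin gene that was higher at each later stage. In lin-35(n745) its means were 6.94 ± 0.12 in embryos, 9.55 ± 0.28 at L1 and 10.48 ± 0.04 at L4 (SD, n = 3). In N2 they were 7.31 ± 0.14, 9.55 ± 0.10 and 10.50 ± 0.03 (SD, n = 3). The L1 minus embryo difference was 2.61 ± 0.12 in lin-35(n745), or 6.11-fold, and 2.24 ± 0.12 in N2, or 4.72-fold (adjusted p 9.2e-14 and 9.2e-13, limma). L4 exceeded L1 by 0.92 ± 0.12 in lin-35(n745) and by 0.95 ± 0.12 in N2. The embryo and larval arrays did not overlap in either strain.

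tbb-4 had the opposite order. Its means were 9.35 ± 0.07 in embryos, 7.39 ± 0.21 at L1 and 6.33 ± 0.04 at L4 in lin-35(n745), and 9.37 ± 0.07, 7.56 ± 0.14 and 6.57 ± 0.10 in N2 (SD, n = 3). The L1 minus embryo difference was −1.96 ± 0.11 in lin-35(n745) and −1.81 ± 0.11 in N2. The L4 minus L1 difference was −1.06 ± 0.11 in lin-35(n745) and −0.99 ± 0.11 in N2 (adjusted p at most 1.7e-07 for all 4). Across the 18 arrays, tbb-4 and tba-4 correlated at r = −0.98, and tbb-4 and tba-1 at 0.96. Ciliated neuron genes, which include intraflagellar transport genes, had a mean level of 6.38 to 6.43 in lin-35(n745) embryos and 6.51 to 6.66 in N2 embryos, of 5.55 to 5.70 in lin-35(n745) and 5.46 to 5.54 in N2 at L1, and of 4.93 to 4.98 in lin-35(n745) and 4.93 to 4.99 in N2 at L4. Their mean was therefore also highest in embryos and lowest at L4 in both strains.

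mec-7 and mec-12 were lowest at L4. Between L1 and L4 mec-7 fell by 1.22 ± 0.17 in lin-35(n745) and by 1.51 ± 0.17 in N2, and mec-12 fell by 1.05 ± 0.13 in lin-35(n745) and by 1.08 ± 0.13 in N2 (adjusted p at most 4.3e-06 for all 4). From embryo to L1, mec-12 rose by 0.31 ± 0.13 in lin-35(n745) (adjusted p = 0.038) and by 0.67 ± 0.13 in N2 (adjusted p = 0.00011). The lin-35(n745) call was lost without lin-35(n745) L1 replicate 1 (0.18, adjusted p = 0.23) and without embryo replicates 2 or 3 of that strain. It was also lost with these arrays fitted alone (0.11), and the mec-12 embryo and L1 arrays of lin-35(n745) overlapped. The mec-7 change from embryo to L1 was 0.15 ± 0.17 in lin-35(n745) and 0.32 ± 0.17 in N2, neither called, and the gene's other probe set had −0.18 in lin-35(n745) and −0.32 in N2, the last of these called (adjusted p = 0.048). With quantile normalization the first probe set was called, at 0.42 in lin-35(n745) (adjusted p = 0.031, limma) and 0.57 in N2 (0.0044). Its N2 rise was also called with each array centred on its median (0.020) and with its arrays alone (0.014). Leaving out lin-35(n745) L1 replicate 1 or 3 brought in the N2 call as well (0.021 and 0.038). Without replicate 3 the lin-35(n745) rise was called too (0.033). The direction of mec-7 between embryo and L1 was therefore not settled by these probe sets. mec-7 and mec-12 correlated at r = 0.91 over the 18 arrays. The genes most like mec-7 by the same measure were ckr-2 (r = 0.97), W08A12.3 (0.97), cdk-14 (0.96), R05D7.1 (0.96) and bus-4 (0.96), of which 1 to 5 stayed on the list when single arrays were left out.

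The mean level of the 10 touch receptor neuron genes lay between 6.51 and 6.62 in embryos of lin-35(n745) and likewise of N2, between 6.62 and 6.79 at L1 over both strains, and between 5.78 and 5.95 at L4 over both strains. The L4 arrays were lowest for these genes, as for mec-7 and mec-12. The part of cell number in this was not tested.

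tba-1 fell at each step and tbg-1 had its lowest level at L1. tba-1 changed from embryo to L1 by −0.40 ± 0.09 in lin-35(n745) and −0.46 ± 0.09 in N2, and from L1 to L4 by −0.46 ± 0.09 in lin-35(n745) and −0.29 ± 0.09 in N2, all 4 called. tbb-2 changed from L1 to L4 by −0.22 ± 0.09 in lin-35(n745) (adjusted p = 0.040) and −0.28 ± 0.09 in N2 (adjusted p = 0.0096). The lin-35(n745) call of tbb-2 was lost when any 1 of its 6 arrays was left out (adjusted p 0.059 to 0.13) and with its arrays fitted alone (0.11), and the N2 call without N2 L4 replicate 1 (0.056). tbg-1 changed from embryo to L1 by −0.52 ± 0.10 in lin-35(n745) and in N2, and from L1 to L4 by 0.53 ± 0.10 in lin-35(n745) and 0.67 ± 0.10 in N2. With quantile normalization of the arrays its embryo to L1 differences were −0.21 in lin-35(n745) and −0.16 in N2 and were not called (adjusted p 0.085 and 0.17). tbb-1 and tba-2 were called at no step in either strain, and tbb-2 was not called from embryo to L1. With quantile normalization, N2 calls from embryo to L1 were gained for tbb-1 (−0.34, adjusted p = 0.020), tba-2 (−0.27, 0.016) and tbb-2 (−0.28, 0.0054), besides mec-7 above. In lin-35(n745), also besides mec-7, calls were gained for tbb-2 from embryo to L1 (−0.27, 0.0068) and for tba-2 from L1 to L4 (−0.25, 0.037). The N2 change of tbb-1 also passed with its arrays alone and without N2 embryo replicate 3 (both 0.049), and tbb-2 passed with an intensity trend (0.049 in lin-35(n745) and 0.046 in N2).

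**Figure D3:**
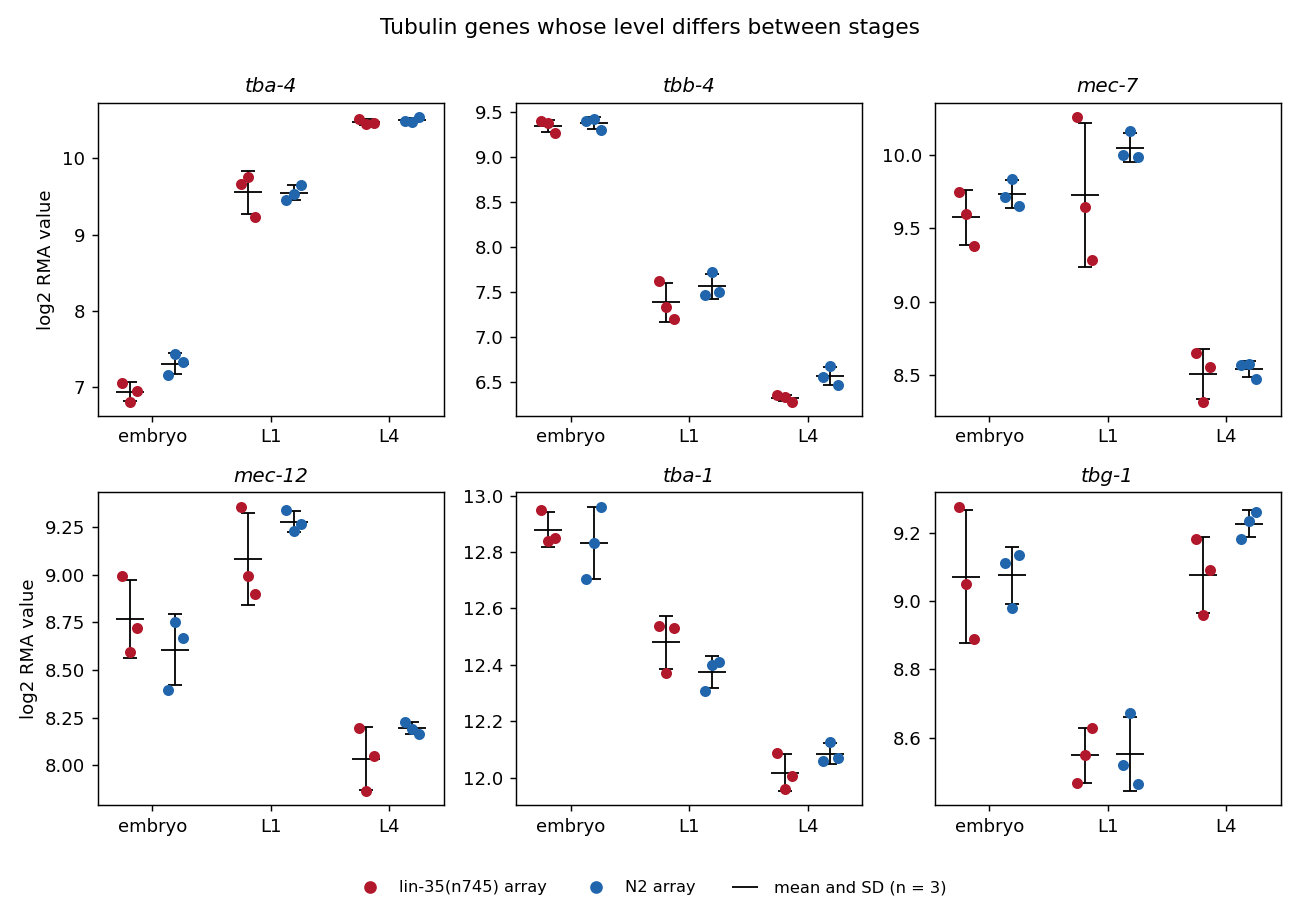
Log2 RMA level (vertical axes, each with its own range) of 6 tubulin genes in each array by stage (horizontal axes), with mean and SD of 3 arrays. tba-4 is lowest in embryos, tbb-4 and tba-1 are highest in embryos, mec-7 and mec-12 are lowest at L4, and tbg-1 is lowest at L1, in lin-35(n745) and in N2.

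Of 6 further tubulin genes, ben-1 (a beta-tubulin, the target of benzimidazole drugs) and tba-5, tba-6, tba-7, tba-8 and tba-9 (alpha-tubulins), only tba-7 was called between the strains. That is 0 of 6 higher in embryos and 1 of 6 at L1 and at L4, against 5.92%, 8.24% and 7.77% of all probe sets. At L4 tba-7 read 9.09, 8.94 and 9.16 in lin-35(n745), against 7.22, 7.21 and 7.31 in N2, a difference of 1.82 ± 0.11, or 3.53-fold (adjusted p = 2.7e-10, limma). At L1 it read 8.67, 8.54 and 8.70 in lin-35(n745), against 7.84, 7.81 and 7.70 in N2, a difference of 0.85 ± 0.11 (adjusted p = 1.2e-05). The strains did not overlap at these stages. In embryos it read 7.65, 7.78 and 7.56 in lin-35(n745), against 7.25, 7.72 and 7.33 in N2. These overlapped, and the difference was 0.23 ± 0.11 (adjusted p = 0.24), or 0.37 without N2 embryo replicate 2 (adjusted p = 0.035). The strain difference of tba-7 grew by 0.63 ± 0.16 from embryo to L1 and by 0.97 ± 0.16 from L1 to L4 (adjusted p 0.015 and 0.00053). Between L1 and L4 tba-7 rose by 0.43 in lin-35(n745) and fell by 0.54 in N2, both called.

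Among the other 5, differences ran from −0.34 for tba-6 in embryos to 0.26 for tba-8 at L4. Of the genes on either side of tba-7 on chromosome III, looked up after its values were known, pugs-8 and dpy-18, the nearest, passed at no stage. subs-4, 2 places away, was lower at L4 by −0.44 (adjusted p = 0.013). A gene 3 places away, the neuropeptide gene nlp-21, was higher by 0.80 in embryos and 0.74 at L1 (adjusted p 0.034 and 0.036) and 0.19 at L4.

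**Figure D4:**
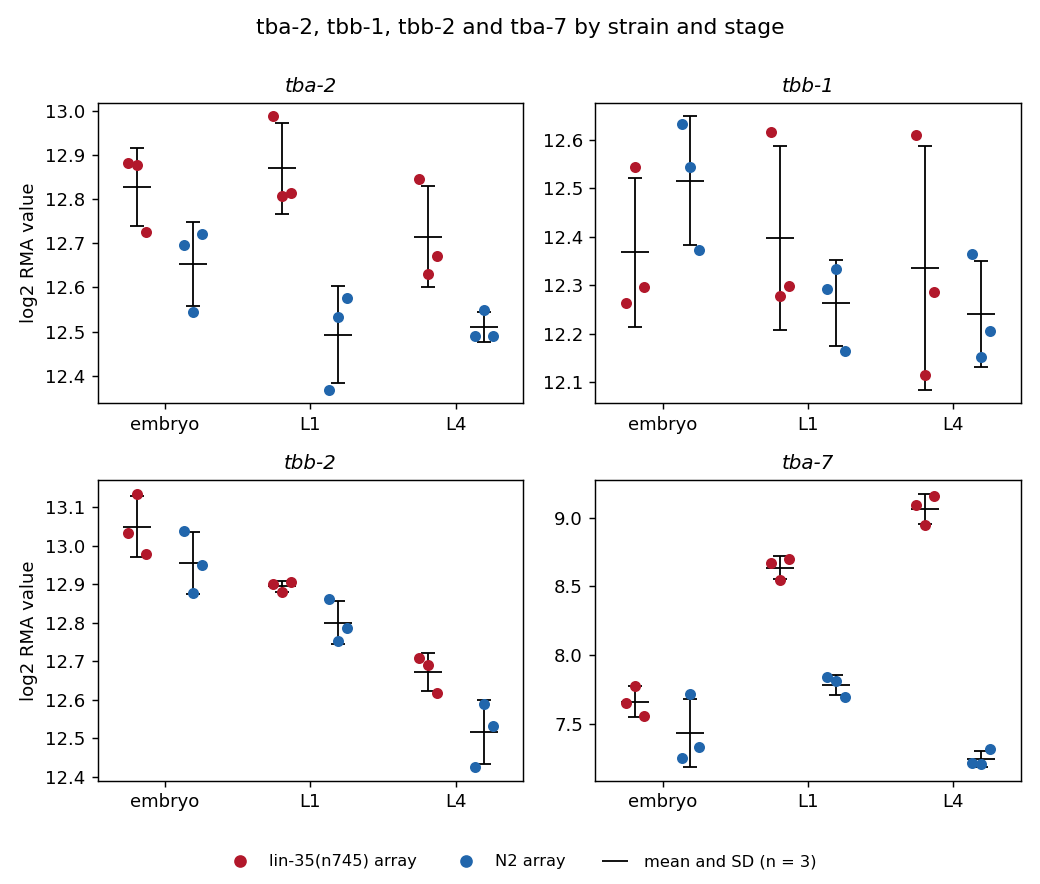
Log2 RMA level (vertical axes, each with its own range) of tba-2, tbb-1, tbb-2 and tba-7 in each array by stage (horizontal axes), with mean and SD of 3 arrays. The strain means differ by at most 0.38 for the first 3 genes, while tba-7 is 0.85 higher at L1 and 1.82 higher at L4 in lin-35(n745).

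Genes that act with tubulin were counted in 6 further lists. In the tubulin folding list, which holds the chaperonin CCT, prefoldin and tubulin cofactors, 7 of 20 genes were called higher in embryos and 0 lower, against the 5.92% and 3.78% above. The list's median in embryos was 0.10. Among these, the chaperonin genes cct-6, cct-3 and cct-2 differed by 0.57 ± 0.10, 0.53 ± 0.15 and 0.48 ± 0.10 (adjusted p 0.00047, 0.027 and 0.0025). The cct-3 call was lost with quantile normalization (adjusted p = 0.097) and without replicate 1 of both strains (0.14). It was also lost in 5 fits with a single embryo array left out (up to 0.16). At L1 1 was higher and 2 lower, against 8.24% and 6.94% of all probe sets, and the median was −0.08. The tubulin cofactor gene tbca-1 was 0.69 ± 0.11 higher, while the prefoldin genes pfd-5 and pfd-3 were −0.39 ± 0.12 and −0.30 ± 0.10 lower (adjusted p 0.035 and 0.048), both no longer called with the L1 arrays alone. The pfd-5 call was also lost with quantile normalization (0.081), without any 1 N2 L1 array and without lin-35(n745) L1 replicate 3 (0.053 to 0.22). For pfd-3 the call was lost in most fits with a single array left out (up to 0.15). At L4 2 were higher and 0 lower, against 7.77% and 7.48%, with a median of 0.05. The counts at L1 and L4 are near those shares. At L4 tbca-1 was higher by 0.64 ± 0.11 and cct-8 by 0.43 ± 0.13. The cct-8 call was lost without any 1 of 4 L4 arrays, N2 replicates 1 or 3 and lin-35(n745) replicates 2 or 3 (adjusted p 0.072 to 0.12).

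In the list of microtubule-associated proteins, 4 of 18 measured genes were higher in embryos, 6 at L1 and 4 at L4, and 0 were lower at any stage. The shares of all probe sets called higher were 5.92%, 8.24% and 7.77% at these stages, and those called lower 3.78%, 6.94% and 7.48%. The list's medians were 0.07, 0.20 and 0.09. zyg-9, whose XMAP215-type product promotes microtubule growth, was higher by 0.68 ± 0.11 in embryos, 0.95 ± 0.11 at L1 and 0.57 ± 0.11 at L4. cls-2, a CLASP gene, was higher by 0.56 ± 0.10, 0.66 ± 0.10 and 0.50 ± 0.10 at the successive stages. The midzone bundling gene spd-1 was higher by 0.56 ± 0.11 in embryos and 0.55 ± 0.11 at L1, and another CLASP gene, cls-3, by 0.93 ± 0.10 at L4. The adjusted p-values of these were at most 0.0021 (limma). These calls stand beside the higher germline genes given above, whose part was not tested. Of the 2 measured genes of the gamma-tubulin complex list, 0 were called at any stage, with differences between −0.27 and 0.24. Unadjusted, both were under 0.05 in embryos (limma), where they were lower, and gip-2 was at L1, where it was higher.

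Among 10 measured genes for tubulin-modifying enzymes, 1 was called higher in embryos and 1 at L1, and 0 were called lower. Of all probe sets, 5.92%, 8.24% and 7.77% were called higher in embryos, at L1 and at L4, so the counts of this list are near the background. ttll-12, of the tubulin tyrosine ligase-like family, was higher by 0.67 ± 0.10 in embryos (adjusted p = 0.00014), and the tubulin acetyltransferase gene atat-2 by 0.53 ± 0.14 at L1 (adjusted p = 0.014, and 0.068 with the L1 arrays alone). The atat-2 call was also lost in 3 fits with a single L1 array left out (up to 0.082). At L4 0 of 10 were called (1 unadjusted).

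Of 26 measured ciliated neuron genes, 0 were higher and 2 lower in embryos, 2 were higher and 0 lower at L1, and 1 was higher and 1 lower at L4. Such counts, at most 2 of 26 in a direction, are near the shares of all probe sets called (5.92%, 8.24% and 7.77% higher, 3.78%, 6.94% and 7.48% lower). At an unadjusted p under 0.05 in limma, 0 were higher and 9 lower in embryos. By that measure 4 were higher and 0 lower at L1, and 2 were higher and 1 lower at L4. The list's medians were −0.18, 0.10 and −0.05, against −0.03, −0.04 and −0.03 over all probe sets. The share of all probe sets under the unadjusted threshold was not counted. The kinesin motor gene osm-3 and the kinesin-associated protein gene kap-1 were lower in embryos by −0.51 ± 0.13 and −0.48 ± 0.13. The osm-3 call was lost without lin-35(n745) embryo replicates 1 or 2 or N2 embryo replicates 2 or 3 (adjusted p 0.058 to 0.10), and the kap-1 arrays overlapped and lost their call without replicate 1 of both strains (−0.28, adjusted p = 0.28). The kap-1 call was also lost in 4 fits with a single embryo array left out (up to 0.14) and with the embryo arrays alone (0.061). At L1 osm-1, an intraflagellar transport gene, and daf-19, the RFX factor of ciliated neurons, were higher by 0.65 ± 0.13 and 0.52 ± 0.11. At L4 klp-11, another kinesin gene, was 0.70 ± 0.11 higher and dyf-3 −0.43 ± 0.14 lower, a call lost when any 1 of 5 of the 6 L4 arrays was left out, all but lin-35(n745) replicate 2 (adjusted p 0.079 to 0.15).

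The list of mitochondrial stress and PMK-3 pathway genes was examined because tbb-6 is known as a target of that response. Of 13 genes, 1 was higher and 0 lower in embryos, 4 higher and 2 lower at L1, and 2 higher and 1 lower at L4, with medians of 0.07, 0.13 and 0.14. Over all probe sets, 5.92%, 8.24% and 7.77% were higher and 3.78%, 6.94% and 7.48% lower. At an unadjusted p under 0.05 in limma, 3 were higher and 0 lower in embryos, dlk-1 among them. By that measure 5 were higher, pmk-3 among them, and 3 lower at L1, and 2 were higher and 1 lower at L4. clpp-1, which encodes a mitochondrial protease, was higher by 0.96 ± 0.09 in embryos, 0.95 ± 0.09 at L1 and 0.61 ± 0.09 at L4 (adjusted p at most 7.9e-05). dlk-1, which encodes a kinase upstream of PMK-3, was higher by 0.58 ± 0.12 at L1 and 0.53 ± 0.12 at L4 (adjusted p 0.0022 and 0.0046). rpm-1, which encodes a ubiquitin ligase that limits DLK-1, was higher at L1 by 0.59 ± 0.16, and the kinase gene mak-2 was lower at L1 by −0.36 ± 0.10. With the L1 arrays fitted alone, the L1 calls of dlk-1, rpm-1, mak-2 and hsp-60 were lost (adjusted p 0.058 to 0.10), as was that of daf-19 above (0.063). The rpm-1 and mak-2 calls were also lost in fits with a single L1 array left out (up to 0.11 and 0.070). In embryos, the stage where the tbb-6 difference was largest, dlk-1 differed by 0.29 ± 0.12 (adjusted p = 0.16).

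The kinase gene pmk-3 differed by −0.006 ± 0.11 in embryos, 0.28 ± 0.11 at L1 and 0.09 ± 0.11 at L4 and was not called. The mitochondrial chaperone genes, common reporters of mitochondrial protein stress, were not called higher. hsp-60 was lower by −0.55 ± 0.13 at L1 and −0.86 ± 0.13 at L4 (adjusted p 0.0073 and 9.9e-05), and hsp-6 differed by 0.19 ± 0.14, 0.03 ± 0.14 and −0.07 ± 0.14 at the successive stages, not called. atfs-1, whose product drives the mitochondrial unfolded protein response, differed by −0.005 ± 0.12, −0.22 ± 0.12 and −0.02 ± 0.12 and was not called. The part of mitochondrial stress or of PMK-3 signalling in the tbb-6 difference was not tested, and RNA levels of these genes do not measure kinase activity.

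**Figure D5:**
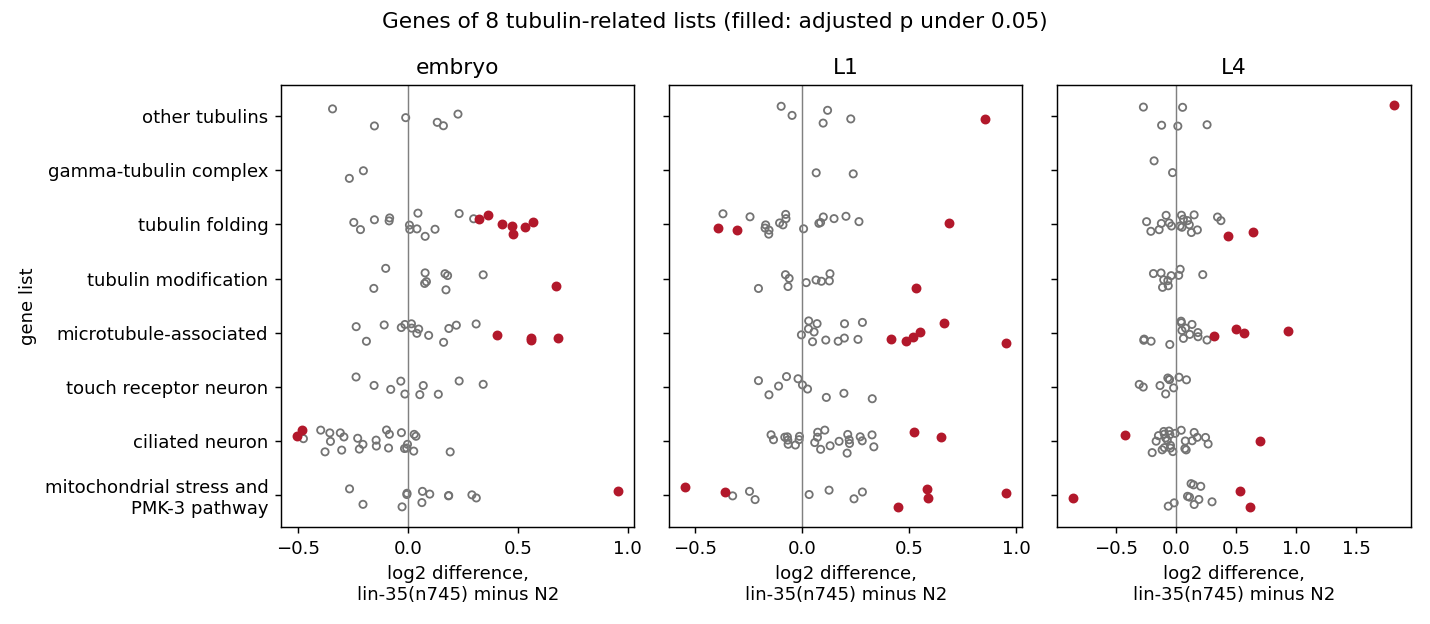
Log2 difference, lin-35(n745) minus N2 (horizontal axes), of each measured gene in 8 tubulin-related lists (vertical axis) in embryos, at L1 and at L4. Filled points passed an adjusted p of 0.05 in limma, open points did not, and points are spread vertically within a list only for visibility. tba-7 stands apart in the other tubulins at L1 and L4.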

How the data were processed

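Total RNA was hybridised to Affymetrix C. elegans arrays, and the authors made the deposited log2 values with RMA, per the submitters' processing notes, which give neither version nor settings. The base of the logarithm is not stated and was read from the values, which run from 2.55 to 15.02. Without detection calls, background and low expression look the same. The table holds 22625 probe sets, of which 77 are controls and 22548 were tested; 20766 name 1 gene in the platform annotation, 887 several and 895 none. limma 3.58.1 in R 4.3.3 (lmFit, eBayes) was fitted with 6 group means to all 18 arrays, with Benjamini-Hochberg adjustment over all probe sets of a contrast, two-sided, and adjusted p under 0.05 as the threshold. The groups share 1 estimate of spread, so leaving out an array of another group can move a call. Tests were checked on simulated data. RefSeq's WBcel235 gene table gave names, chromosomes and neighbours only, and sequences were not used here.

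The members and lists were chosen with earlier results of these data known. Named list genes are the called genes of largest change, at most 3 per list and stage; pmk-3, hsp-6, atfs-1 and gip-2, the mean levels of marker lists, the dlk-1 value in embryos, and the genes named beside tba-7 were chosen after their values were seen. Likeness is Pearson's r over 18 arrays. Alternatives were scaling, an intensity trend, a filter on dim probe sets, the arrays of a contrast alone, a replicate block, the mean of a gene's probe sets, and each array left out.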

Additional observations from a re-analysis of the deposited data

Results flagged for a closer look

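Tests of whether the strain difference itself changed between stages (limma, difference of lin-35(n745) minus N2 at the later stage and at the earlier stage, log2 ± SE) passed the threshold for 14 of the 25 genes of the tubulin-related lists named in the text, and for 0 of the 9 tubulin genes tested. These 25 genes had been picked for their strain differences, so the count says nothing of the lists as a whole. The strain difference of tba-7 was larger at each later stage in all 3 comparisons: 0.63 ± 0.16 for L1 minus embryo, 0.97 ± 0.16 for L4 minus L1 and 1.59 ± 0.16 for L4 minus embryo (adjusted p 0.015, 0.00053 and 1.1e-06).

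4 named chaperonin genes had a smaller or opposite strain difference at L1 than in embryos. The change was −0.65 ± 0.14 for cct-2, −0.69 ± 0.21 for cct-3, −0.68 ± 0.14 for cct-6 and −0.60 ± 0.18 for cct-8 (adjusted p 0.0040, 0.046, 0.0030 and 0.038). For cct-8 it was 0.80 ± 0.18 for L4 minus L1, and for cct-6 −0.48 ± 0.14 for L4 minus embryo. The cct-3 call was lost in 14 of the fits with a single array left out (adjusted p up to 0.125), with quantile normalization (0.076) and with the arrays of these stages alone (0.093). The L1 call of cct-8 was lost in 9 such fits (up to 0.097) and with those arrays alone (0.084), and the L4 call of cct-6 in 9 such fits (up to 0.106). ttll-12 changed by −0.73 ± 0.15 for L1 minus embryo and −0.80 ± 0.15 for L4 minus embryo.

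For cls-3 the strain difference grew at each step, by 0.53 ± 0.15 for L1 minus embryo, 0.52 ± 0.15 for L4 minus L1 and 1.04 ± 0.15 for L4 minus embryo (adjusted p 0.027, 0.037 and 8.1e-05). Both single-step calls of cls-3 were lost with their arrays alone (adjusted p 0.063 and 0.064) and in 7 and 8 of the fits with a single array left out (up to 0.072 and 0.108). Among ciliated neuron genes it changed for L1 minus embryo by 0.65 ± 0.18 for osm-1, 0.61 ± 0.16 for daf-19 and 0.75 ± 0.18 for kap-1, and for L4 minus embryo by 0.66 ± 0.16 for klp-11 and 0.63 ± 0.18 for kap-1. The osm-1 and daf-19 calls were lost with their arrays alone (adjusted p 0.072 and 0.055), that of osm-1 also in 5 fits with a single array left out (up to 0.075), and the L4 call of kap-1 in 10 such fits (up to 0.107). In the mitochondrial stress list it changed for L1 minus embryo by 0.85 ± 0.23 for rpm-1 and −0.54 ± 0.14 for mak-2, for L4 minus L1 by 0.55 ± 0.14 for mak-2, and for L4 minus embryo by −0.66 ± 0.19 for hsp-60. The rpm-1 call was lost with its arrays alone (adjusted p = 0.061) and in 5 fits with a single array left out (up to 0.072), the L1 minus embryo call of mak-2 with its arrays alone (0.053), its L4 minus L1 call without N2 L4 replicate 3 (0.051), and that of hsp-60 with quantile normalization (0.074) and in 8 fits with a single array left out (up to 0.106). Groups of 3 arrays were too small for a search for outlying arrays.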

How the results depend on the processing

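The strain differences of tbb-6, for which the gene was chosen, kept their sign under every setting tried. As every lin-35(n745) array lay above every N2 array, leaving arrays out could not have turned it. Counts of called probe sets moved by over 1.5 times in these cases: strain contrast at L1, 1584 with its arrays alone against 3423; change of the strain contrast from embryo to L1, 1323 with its arrays alone against 2074; strain contrast in embryos, 1265 without replicate 1 of both strains against 2188; and change from L1 to L4, 1021 to 2447 as single arrays were left out, against 1515. With each array centred on its median the L1 calls split into 1569 higher and 2302 lower, against 1859 and 1564, and those at L4 into 1590 and 2108, against 1751 and 1687.

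Of the 9 tested tubulin genes, those called between embryo and L1 in N2 numbered 8 with quantile normalization against 5. Calls were gained for tbb-1, tbb-2, tba-2 and mec-7, and that of tbg-1 was lost. At L1 between strains 0 were called with the arrays alone, and 0 to 2 as single arrays were left out, against 1. In embryos 1 (tba-4) was called with centring, with the intensity trend and without replicate 1 of both strains, and 0 to 1 as single arrays were left out, against 0. For the change from embryo to L1 the range was 0 to 1 (tba-4, without lin-35(n745) L1 replicate 3).

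The values that turned sign were all uncalled. Between strains in embryos, mec-12 was −0.0535 and tba-1 −0.052 without replicate 1 of both strains, and tbg-1 was 0.008 with quantile normalization; with single arrays left out, tba-1 ran from −0.0169 to 0.112, tbb-4 from −0.0628 to 0.0135 and tbg-1 from −0.106 to 0.0871. At L1, tba-4 was −0.046 with centring and −0.0146 with quantile normalization and ran from −0.0956 to 0.166, and tbg-1 ran from −0.0485 to 0.0563. At L4, mec-7 ran from −0.104 to 0.0618 and tbb-1 from −0.0408 to 0.207. From embryo to L1 in lin-35(n745), mec-7 was −0.0161 with the mean of its probe sets and ran from −0.113 to 0.376, tba-2 was −0.0165 with quantile normalization and ran from −0.0173 to 0.0737, and tbb-1 ran from −0.0807 to 0.117; in N2, mec-7 was −0.0021 with the mean of its probe sets. From L1 to L4 in N2, tba-2 was −0.0104 with centring, −0.0831 with quantile normalization and −0.0914 with the mean of its probe sets, and ran from −0.0446 to 0.0598, and tbb-1 ran from −0.0843 to 0.0214; in lin-35(n745), tbb-1 ran from −0.197 to 0.0505. The cause of these changes was not tested.

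Replicate numbers are shared between strains but no label says that they pair the samples, and deviations of same-numbered samples correlated at −0.05 to 0.27 across probe sets. With a replicate block the strain contrasts called 2069, 3434 and 3336 probe sets in embryos, at L1 and at L4. The block ended the call of cct-6 (adjusted p = 0.081) and of kap-1 (0.082) for the change from embryo to L4, of kap-1 in embryos (0.053), pfd-3 at L1 (0.081), dyf-3 at L4 (0.085) and tbb-2 from L1 to L4 in lin-35(n745) (0.052), and moved no other single-gene call. At each stage 2 of 3 arrays correlated best with their own number.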
